A study of Homo sapiens with 10 samples.

Results

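The mitochondrial carrier family SLC25 was followed in human renal tubule cells 7 days after ionising radiation. Its members were taken as every protein-coding gene of the count table whose symbol is SLC25A followed by a number, a rule that used no measured value, and 48 of the 61587 genes in the table met it. RPTEC/TERT1 is a human renal proximal tubule epithelial line immortalised with telomerase, so the values describe 1 line grown in culture. The irradiated cultures received 10 Gy of gamma rays 3 days after plating and the controls were handled in the same way with a mock exposure. Poly-A RNA was collected 7 days later from 5 cultures of each kind, and the labels name no other agent. The labels number the samples 1 to 5 in each group and do not say which cultures were grown apart. Column names give both samples of a number the same B number, and the main fit (edgeR) treats them as a pair. Its p-values measure the spread of differences within these pairs only. Those of the permutation tests measure the spread between these samples only. In bulk RNA, fewer cells of a type and less RNA per cell cannot be told apart.

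The carriers sit in the inner mitochondrial membrane, where they exchange nucleotides, phosphate, keto acids, amino acids, cofactors and metals between the cytosol and the matrix. Most work as exchangers, and several substrates are served by a pair of close paralogues whose balance differs between tissues. They are encoded in the nucleus, made in the cytosol and inserted with the help of small TIM chaperones and the TIM22 translocase. Proximal tubule cells rely heavily on mitochondrial ATP for reabsorption and are rich in these proteins.

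The total count per sample ran from 78081911 to 131555873 in control and from 66269311 to 101594948 in irradiated samples. Of 10 genes of arrest and cycling, 9 changed: CDKN1A, the cell cycle inhibitor p21, rose from 66.7 to 208 CPM (gene counts scaled by the TMM-adjusted library size) in control samples to 584 to 768 CPM in irradiated samples, and MDM2 rose with it, while MKI67 and 6 other cycling genes fell. Control samples 1 and 3 stood apart, with MKI67 at 76.7 and 60.4 CPM against 217 to 234 CPM in the other 3 controls, and control sample 3 also had the highest CDKN1A of the controls (208 CPM). Where leaving out both numbers changed a member's call, its value without them is given beside it. Epithelial markers (PAX8, EPCAM, KRT8, KRT18, KRT19, CDH1) were abundant, and of the 7 genes listed for the proximal tubule and its brush border ANPEP was abundant (248 CPM in controls and 296 CPM in irradiated samples as means), GGT1, CUBN and AQP1 were present (10.0, 4.37 and 1.82 CPM in controls), and LRP2, SLC34A1 and HNF4A were nearly absent (17, 86 and 12 counts over all samples). The list of 14 tubule markers also held CDH6, which rose from 37.7 to 246 CPM as group means. Of the 11 tested, KRT19 rose as well (log2 change 0.69), CDH1 and AQP1 fell (-0.18 and -0.61) and 7 were not called. Of 10 markers of fibroblasts, endothelium and leukocytes, COL3A1, PDGFRB, CD68 and CD3E held 4, 49, 27 and 3 counts, and COL1A1, DCN, CDH5 and PECAM1 rose, the first from 18.8 to 32.2 CPM and the other 3 from under 1 CPM to at most 3.31 CPM as group means. The part of cycling and of these markers in the results on carriers was not tested.

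Of the 48 members, 41 held at least 200 counts over the 10 samples and were tested. With a threshold of 0.05 on the edgeR quasi-likelihood p adjusted by the Benjamini-Hochberg method over 19006 genes, 9 rose (22.0% of those tested) and 10 fell (24.4%). Across all genes tested the shares were 23.9% and 22.7%, so the members were called about as often as any gene. The changes were small. Only SLC25A45 rose by more than 2-fold, against 5.26% of all genes, and only SLC25A48 fell by more than 2-fold, against 4.06%. The median size of the log2 change was 0.18 in members and 0.23 in all genes, and 35 of the 41 members lay within 0.5 of no change (85.4%, against 75.8% of all genes). Control and irradiated samples did not overlap for 4 members that were higher after irradiation (9.76%) and for 8 that were lower (19.5%), against 14.6% and 12.0% of all genes. The median log2 change was -0.01 both in members and in all genes. Scaling by library size alone, which moved the median of all genes by -0.08, gave 5 rises and 16 falls, so that rises made up 23.8% of the called members in place of 47.4%; with upper quartile scaling the share was 35.0%. Omitting both samples of number 4 left 5 rises and 8 falls, and omitting numbers 1 and 3 left 7 and 10.

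**Figure D1:**
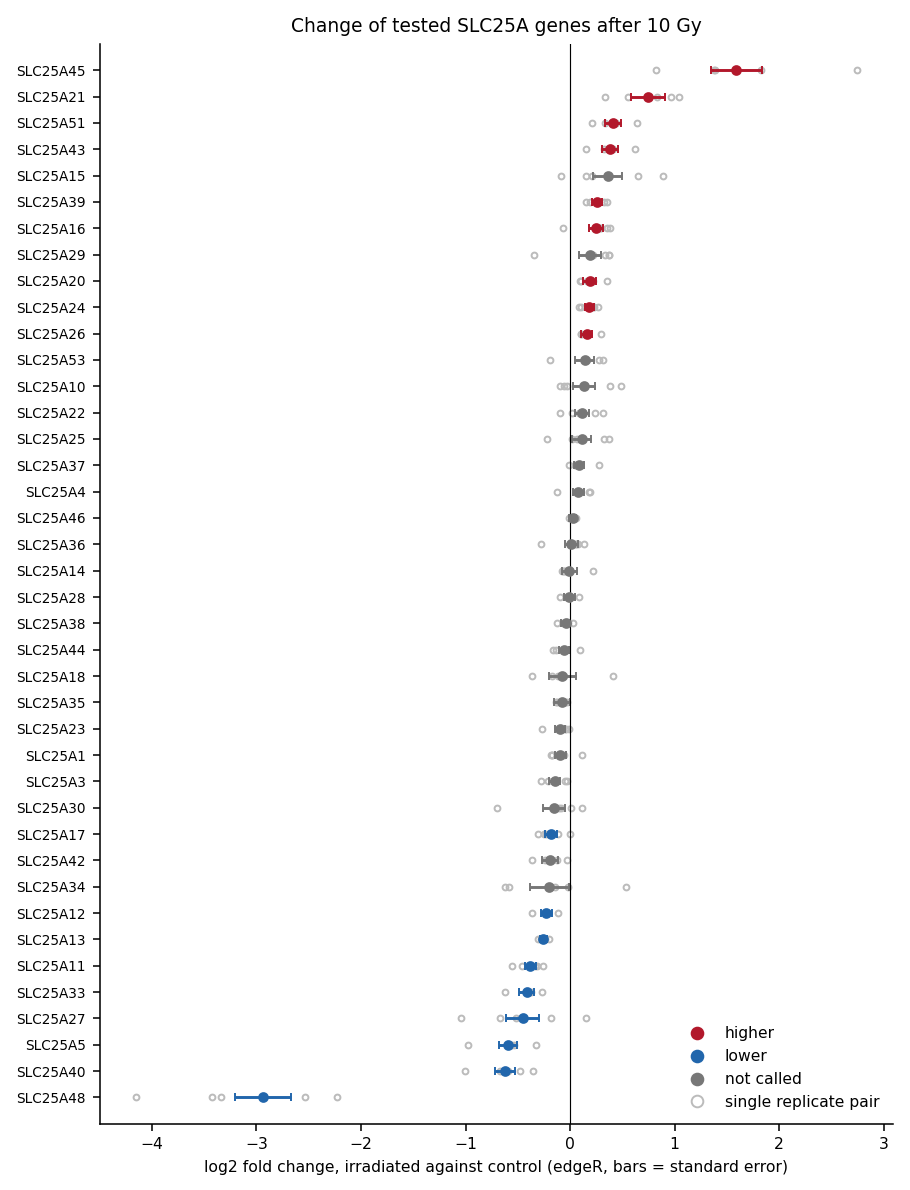
Log2 fold change of 40 of the 41 tested members between irradiated and control samples (filled points, edgeR estimate with its standard error; red for higher, blue for lower and grey for not called), with the 5 single replicate pairs as open circles. SLC25A48 at -2.94 and SLC25A45 at 1.59 lie apart from the rest, most of which lie within 0.5 of 0.

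The promoters of 2 pairs of paralogues are shown because the balance within these pairs moved: the ADP/ATP carriers SLC25A4 and SLC25A5 and the glutathione carriers SLC25A39 and SLC25A40. Each sequence is the 250 bases before the start of transcription in RefSeq (GRCh38.p14), written 5′ to 3′ along the gene, and lies at chr4:185143016-185143265 on the plus strand for SLC25A4, chrX:119468194-119468443 on the plus strand for SLC25A5, chr17:44324824-44325073 on the minus strand for SLC25A39 and chr7:87876361-87876610 on the minus strand for SLC25A40. Capitals mark the motifs found.
SLC25A4: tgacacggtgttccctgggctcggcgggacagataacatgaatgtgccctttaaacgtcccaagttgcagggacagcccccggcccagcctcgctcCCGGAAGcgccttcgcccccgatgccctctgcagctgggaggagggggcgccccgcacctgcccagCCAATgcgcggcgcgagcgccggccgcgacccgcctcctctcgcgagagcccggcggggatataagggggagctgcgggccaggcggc
SLC25A5: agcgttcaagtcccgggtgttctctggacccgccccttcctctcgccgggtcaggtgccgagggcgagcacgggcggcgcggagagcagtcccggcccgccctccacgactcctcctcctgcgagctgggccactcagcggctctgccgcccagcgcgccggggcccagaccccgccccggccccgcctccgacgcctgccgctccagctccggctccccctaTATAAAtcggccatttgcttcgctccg
SLC25A39: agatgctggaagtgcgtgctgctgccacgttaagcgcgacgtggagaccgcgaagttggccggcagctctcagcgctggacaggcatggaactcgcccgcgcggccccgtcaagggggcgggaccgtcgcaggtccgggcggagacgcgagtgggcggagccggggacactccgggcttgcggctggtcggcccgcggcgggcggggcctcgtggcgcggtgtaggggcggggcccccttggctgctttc
SLC25A40: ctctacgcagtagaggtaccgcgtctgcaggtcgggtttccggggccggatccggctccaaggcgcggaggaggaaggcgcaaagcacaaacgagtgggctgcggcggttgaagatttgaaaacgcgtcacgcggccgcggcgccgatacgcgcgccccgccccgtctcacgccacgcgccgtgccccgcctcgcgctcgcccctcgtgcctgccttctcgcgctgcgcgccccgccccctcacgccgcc
SLC25A4 held the ETS motif CCGGAAG, 154 to 148 bases before the start, and CCAAT, 88 to 84 bases before it. SLC25A5 held TATAAA, 27 to 22 bases before the start, and no other motif of the set. Neither SLC25A39 nor SLC25A40 held any of the 7 motifs searched on both strands (GCGCATGCG for NRF1, CCGGAAG for ETS, CCAAT, TTTNNCGC for E2F, TNAAGGTCA for ERR, AAGATGGC for YY1 and TATAAA). GC content was 71.6% in SLC25A4, 73.6% in SLC25A5, 74.0% in SLC25A39 and 72.8% in SLC25A40. A match is a run of letters and not a site shown to be used.

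RefSeq gave 50 such windows for 40 of the 48 members, and had none for members such as SLC25A2, SLC25A16, SLC25A30, SLC25A32, SLC25A35, SLC25A37 and SLC25A41. Their median GC content was 65.4%, against 58.0% of all 35116 windows. CCGGAAG was present in 22.0% of member windows and in 8.52% of all windows, and CCAAT in 42.0% and 32.0%. By call, CCGGAAG was in 3 of 12 windows of members that rose, 1 of 10 of members that fell and 6 of 24 of members not called. CCAAT was in 2 of the 12 windows of members that rose (SLC25A21 and SLC25A45), in 4 of the 10 windows of members that fell (SLC25A13, SLC25A17, SLC25A27 and SLC25A33) and in 14 of the 24 windows of members that were not called. TTTNNCGC was in 10.0% of member windows and in 5.92% of all windows. It was in none of the 12 windows of members that rose, in 3 of the 10 of members that fell (SLC25A11, SLC25A17 and SLC25A27) and in 1 of the 24 of members not called. TATAAA was in 8.0% of member windows and 10.7% of all windows, and AAGATGGC in 2.0% and 1.36%. GCGCATGCG and TNAAGGTCA were in no member window, and in 1.64% and 0.854% of all windows.

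Per length of transcript, the highest mean level over the 10 samples was that of SLC25A5. This ADP/ATP carrier stood at 132 CPM per kilobase, the citrate carrier SLC25A1 at 115, the basic amino acid carrier SLC25A29 at 101, the glutathione carrier SLC25A39 at 89.2, the phosphate carrier SLC25A3 at 63.8 and the oxoglutarate/malate carrier SLC25A11 at 42.7 CPM per kilobase. The tested member with the lowest level was SLC25A21, at 0.0948 CPM per kilobase. This order depends on the canonical transcript lengths, which are 5984 bases for SLC25A3 and 1307 bases for SLC25A5. It leaves out SLC25A6, which was not measured. By counts, which are not scaled for length, SLC25A3 took 18.1% ± 1.04 (SD, n = 5) of all member counts in control samples and 17.2% ± 0.573 in irradiated samples.

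**Figure D2:**
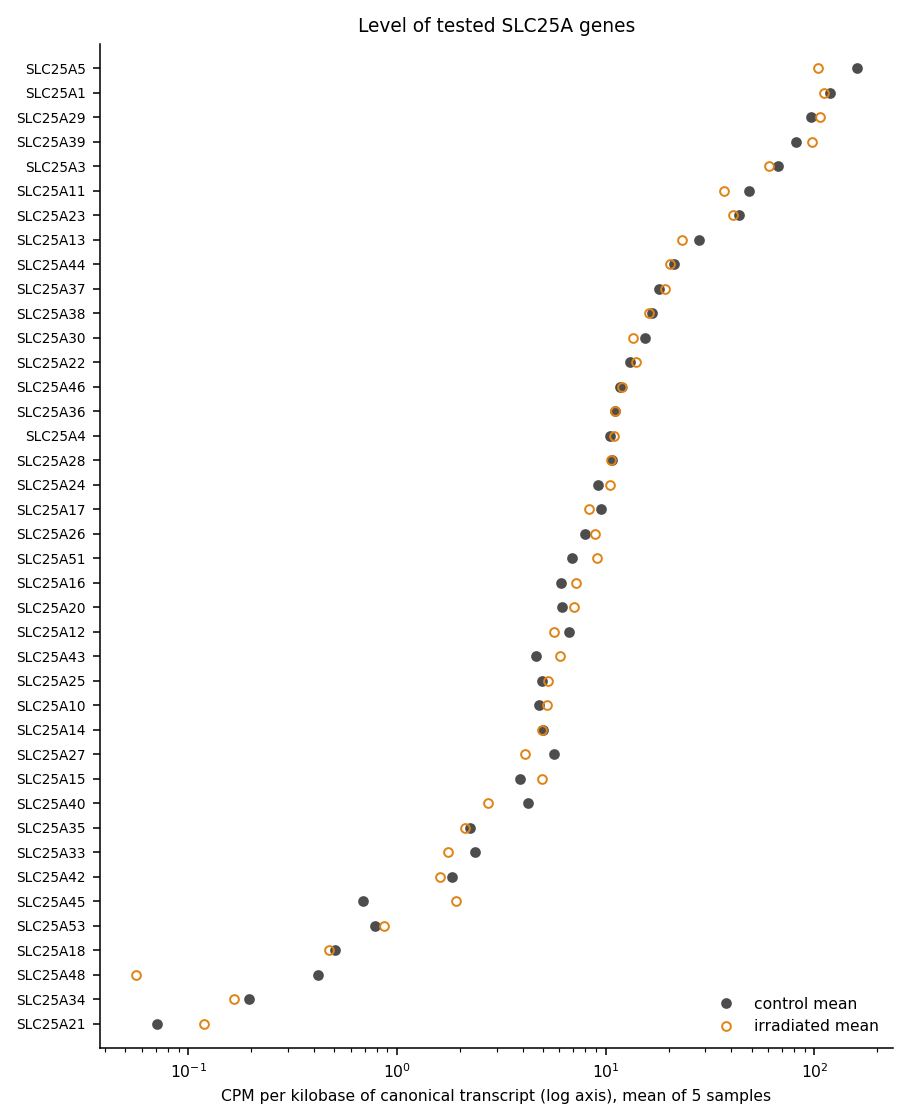
Mean level of 40 of the 41 tested members in control (filled grey) and irradiated (open orange) samples, in CPM per kilobase of canonical transcript on a log axis, n = 5 each. Levels ran from SLC25A21 to SLC25A5, and the paired symbols mostly overlap, apart from SLC25A48 and SLC25A45.

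The ADP/ATP carriers bring ADP into the matrix in exchange for ATP made there. Of the 4 genes, SLC25A4 (ANT1, the muscle and heart form) and SLC25A5 (ANT2, the form of dividing cells) were tested, and only SLC25A5 changed. SLC25A5 (ENSG00000005022.6, chrX:119468422-119471396) was at 166, 199.7, 285, 198 and 196 CPM in control samples 1 to 5 and at 133, 135, 145, 137 and 132 CPM in irradiated samples 1 to 5. All 5 irradiated samples lay below all controls, and control sample 3 was the highest of all. The fitted log2 change was -0.59 (SE 0.08, edgeR adjusted p = 0.00106), and -0.56 without numbers 1 and 3. SLC25A4 (ENSG00000151729.11, chr4:185143266-185150382) was at 42.5, 48.2, 56.9, 40.4 and 43.3 CPM in controls and at 48.3, 50.3, 52.1, 46.0 and 46.1 CPM in irradiated samples. These groups overlapped, and the log2 difference of 0.08 (SE 0.06) was not called (edgeR adjusted p = 0.275), although it was called without number 3 (0.14). Exons of another gene on the opposite strand cover 13.2% of those of SLC25A5, and reads there are not counted. The 9 pseudogenes of SLC25A5 held 125 counts, against 174869 for the gene. Only uniquely mapped reads were counted, so these numbers do not show how many reads shared with pseudogenes were lost.

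SLC25A31, a testis form, held 10 counts. SLC25A6 was listed at 0 in every sample. It belongs to the 18 protein-coding pseudoautosomal genes, of which 17, itself included, were at 0, so its expression was not measured.

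The phosphate carrier SLC25A3 supplies ATP synthase, and the calcium-regulated ATP-Mg/phosphate carriers SLC25A23, SLC25A24, SLC25A25 and SLC25A41 adjust the matrix adenine nucleotide pool. Of the 4 tested, SLC25A24 rose and none fell. SLC25A24 was at 36.4, 36.9, 40.1, 40.6 and 41.8 CPM in controls and at 43.8, 39.3, 46.8, 47.7 and 45.0 CPM in irradiated samples, higher in each of the 5 pairs with overlap between groups (log2 change 0.18, SE 0.04, edgeR adjusted p = 0.0123). The call was lost without number 4 (0.17) and without numbers 1 and 3 (0.14), and under scaling by library size (0.11). SLC25A3 was at 361, 363, 464, 412 and 410 CPM in controls and at 354, 351, 382, 369 and 355 CPM in irradiated samples, lower in each pair. Its log2 difference of -0.14 (SE 0.05) lay just outside the threshold (edgeR adjusted p = 0.0546), and 5 of the 13 alternatives called it. SLC25A23 (-0.09) and SLC25A25 (0.11) were not called, and SLC25A41 held 61 counts.

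The citrate carrier SLC25A1, the dicarboxylate carrier SLC25A10, the oxoglutarate/malate carrier SLC25A11 and the oxoadipate carrier SLC25A21 move keto acids and dicarboxylates. SLC25A11, which takes part in the malate-aspartate shuttle, fell. It was at 75.0, 78.4, 104, 72.7 and 79.5 CPM in controls and at 60.4, 65.7, 70.9, 57.7 and 57.7 CPM in irradiated samples, with no overlap (log2 change -0.38, SE 0.05, edgeR adjusted p = 0.000865). SLC25A21, which serves lysine and tryptophan breakdown, rose from a low level. It was at 0.220, 0.243, 0.299, 0.371 and 0.244 CPM in controls and at 0.323, 0.433, 0.616, 0.468 and 0.475 CPM in irradiated samples, with 1 overlapping value and 354 counts in all (log2 change 0.75, SE 0.16, edgeR adjusted p = 0.00764). Opposite-strand genes cover 37.2% of its exons. SLC25A1 was at 182, 178, 175, 192 and 194 CPM in controls and at 174, 158, 189.8, 171 and 171 CPM in irradiated samples. These ranges overlapped and the log2 difference of -0.09 (SE 0.06) was not called, although it was without number 3 (-0.14) and without numbers 1 and 3 (-0.18). SLC25A10 was not called either (0.14, and -0.06 without numbers 1 and 3), and 46.6% of its exon length is shared with another gene.

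The aspartate/glutamate carriers SLC25A12 (aralar) and SLC25A13 (citrin), which complete the malate-aspartate shuttle, both fell by small amounts without overlap. SLC25A13 was at 79.5, 83.4, 90.1, 92.2 and 92.1 CPM in controls and at 69.3, 70.8, 75.2, 76.2 and 74.6 CPM in irradiated samples (log2 change -0.26, SE 0.04, edgeR adjusted p = 0.00116). SLC25A12 was at 24.5, 27.1, 28.8, 24.5 and 25.6 CPM in controls and at 22.6, 23.4, 22.4, 21.01 and 22.0 CPM in irradiated samples (log2 change -0.23, SE 0.05, edgeR adjusted p = 0.00782). Every irradiated value of SLC25A12 and SLC25A13 was below every control value of the same gene. The glutamate carriers SLC25A22 and SLC25A18 were not called (0.11 and -0.07).

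None of the 4 tested amino acid carriers was called. SLC25A29 was at 215, 208, 341, 178 and 158 CPM in controls and at 270.1, 270.2, 269, 207 and 205 CPM in irradiated samples, higher in 4 of 5 pairs. Control sample 3 was the highest of the 10, and without number 3 the log2 difference rose from 0.19 (SE 0.11) to 0.33 and was called, as it was without numbers 1 and 3 (0.32). The mitochondrial ornithine carrier SLC25A15 had a log2 difference of 0.36 (SE 0.14, edgeR adjusted p = 0.0633), which was called without number 2 (0.48) and stood at 0.09 without numbers 1 and 3. The glycine carrier SLC25A38 (-0.04) and the branched-chain amino acid carrier SLC25A44 (-0.06) were within 0.1 of no difference. SLC25A2, the second ornithine carrier, held 75 counts.

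The carnitine/acylcarnitine carrier SLC25A20, which brings fatty acids to beta-oxidation, was higher in each pair by a small margin. It was at 11.6, 10.7, 10.7, 11.3 and 10.8 CPM in controls and at 13.5, 11.5, 13.7, 12.7 and 11.5 CPM in irradiated samples, with overlap (log2 change 0.19, SE 0.06, edgeR adjusted p = 0.0432). This call was lost in 10 of 13 alternatives, among them without any 1 of the numbers 1, 3, 4 and 5 (0.15 to 0.22) and without numbers 1 and 3 (0.12).

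Of the 10 nucleotide and cofactor carriers, 8 were tested, and 3 rose and 3 fell. SLC25A33, a pyrimidine nucleotide carrier, was at 7.68, 10.6, 8.99, 9.02 and 9.24 CPM in controls and at 6.38, 6.85, 6.80, 6.82 and 7.11 CPM in irradiated samples, without overlap (log2 change -0.42, SE 0.07, edgeR adjusted p = 0.00298). SLC25A17, the peroxisomal carrier of coenzyme A, FAD and NAD, was at 18.1, 21.1, 23.7, 20.0 and 22.3 CPM in controls and at 18.1, 18.04, 19.2, 18.4 and 18.7 CPM in irradiated samples, with overlap through control sample 1 (log2 change -0.18, SE 0.06, edgeR adjusted p = 0.0381). Its call was lost without any 1 of the numbers 2, 3, 4 and 5 (-0.20 to -0.15).

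Among the rises of this group, SLC25A51, the NAD carrier of mitochondria, was the largest. SLC25A51 (ENSG00000122696.14, chr9:37879400-37904353) was at 7.06, 8.13, 8.55, 8.04 and 8.37 CPM in controls and at 11.0, 9.39, 11.5, 10.9 and 10.6 CPM in irradiated samples, all 5 above all controls (log2 change 0.41, SE 0.08, edgeR adjusted p = 0.00378). SLC25A16, linked to coenzyme A, was at 34.4, 41.1, 51.3, 37.0 and 37.6 CPM in controls and at 41.9, 52.6, 48.8, 45.4 and 49.0 CPM in irradiated samples, higher in 4 of 5 pairs (log2 change 0.25, SE 0.07, edgeR adjusted p = 0.0214). The S-adenosylmethionine carrier SLC25A26 was at 15.0, 15.9, 17.5, 15.7 and 16.6 CPM in controls and at 18.3, 17.6, 18.9, 17.3 and 17.9 CPM in irradiated samples (log2 change 0.16, SE 0.05, edgeR adjusted p = 0.0414). SLC25A16 and SLC25A26 lost their calls without any 1 of the numbers 1, 2, 4 and 5 (0.23 to 0.24 and 0.12 to 0.18), and SLC25A26 also without numbers 1 and 3 (0.13), whereas SLC25A51 kept its call in each of the 13 alternatives. The coenzyme A carrier SLC25A42 (-0.19) and the second pyrimidine carrier SLC25A36 (0.01) were not called. SLC25A52 held 13 counts and the folate and FAD carrier SLC25A32 held 162, with 80.8% of its exon length shared with other genes, whose reads are not counted.

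SLC25A39 and SLC25A40 import glutathione into mitochondria, and they moved in opposite directions without overlap. SLC25A39 (ENSG00000013306.16, chr17:44319625-44324870) was at 123, 134, 139, 127 and 119 CPM in controls and at 157, 149, 174, 145 and 144 CPM in irradiated samples (log2 change 0.26, SE 0.05, edgeR adjusted p = 0.00279). SLC25A40 (ENSG00000075303.13, chr7:87833568-87876360) was at 14.5, 15.8, 21.8, 16.8 and 17.0 CPM in controls and at 11.3, 11.3, 10.9, 11.1 and 10.7 CPM in irradiated samples (log2 change -0.62, SE 0.09, edgeR adjusted p = 0.00135). The rise of SLC25A39 and the fall of SLC25A40 held in each of the 13 alternatives, scaling by library size included (0.18 and -0.70). SLC25A40 starts head to head with DBF4, a regulatory subunit of a replication kinase. Their starts are 144 bases apart with overlapping ends, and DBF4 fell as well (log2 change -1.02, SE 0.13, edgeR adjusted p = 0.000574). Of the 41 tested members, 7 had such a divergent protein-coding neighbour within 1000 bases (17.1%, against 17.2% of all protein-coding genes tested). SLC25A11, which fell, faces RNF167, which rose (0.13, edgeR adjusted p = 0.0300). SLC25A12, SLC25A27, SLC25A46, SLC25A25 and SLC25A22 face METAP1D, CYP39A1, TMEM232, NAIF1 and PANO1, none of which was called.

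The iron carriers SLC25A37 (mitoferrin 1) and SLC25A28 (mitoferrin 2) were not called, at log2 differences of 0.09 (SE 0.05) and -0.01 (SE 0.05). Of the carriers related to uncoupling proteins, SLC25A27 (UCP4) fell and SLC25A14 and SLC25A30 were not called (-0.01 and -0.15). SLC25A27 was at 18.9, 15.8, 22.4, 14.0 and 11.4 CPM in controls and at 11.9, 17.6, 10.8, 9.78 and 10.0 CPM in irradiated samples, lower in 4 of 5 pairs (log2 change -0.45, SE 0.16, edgeR adjusted p = 0.0471). Its call was lost without any 1 of the numbers 1, 3, 4 and 5 (-0.51 to -0.30), and the difference was -0.18 without numbers 1 and 3.

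The remaining 8 members held both of the changes above 2-fold. SLC25A48 (ENSG00000145832.15, chr5:135476913-135889770), described as a mitochondrial choline carrier, was at 0.991, 0.694, 0.349, 0.771 and 0.806 CPM in controls and at 0.212, 0.119, 0.0324, 0.0762 and 0.0452 CPM in irradiated samples. The log2 change was -2.94 (SE 0.27, edgeR adjusted p = 0.000141), and -3.27 without numbers 1 and 3. Its level was low throughout, with 435 counts in all and from 3 to 97 counts per sample, but the groups did not overlap. SLC25A45 (ENSG00000162241.13, chr11:65375192-65383701) was at 1.75, 2.66, 0.628, 1.61 and 1.15 CPM in controls and at 4.56, 4.69, 4.21, 4.17 and 4.07 CPM in irradiated samples. All 5 irradiated samples lay above all controls, among which control sample 3 was the lowest (log2 change 1.59, SE 0.24, edgeR adjusted p = 0.00145). SLC25A43 was at 11.9, 12.5, 10.4, 11.9 and 11.7 CPM in controls and at 14.9, 13.9, 15.98, 15.7 and 15.5 CPM in irradiated samples, also without overlap (log2 change 0.38, SE 0.08, edgeR adjusted p = 0.00473). SLC25A34 (-0.20), SLC25A35 (-0.08), SLC25A46 (0.02), a protein of the outer membrane, and SLC25A53 (0.14) were not called, and SLC25A47 held 30 counts.

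**Figure D3:**
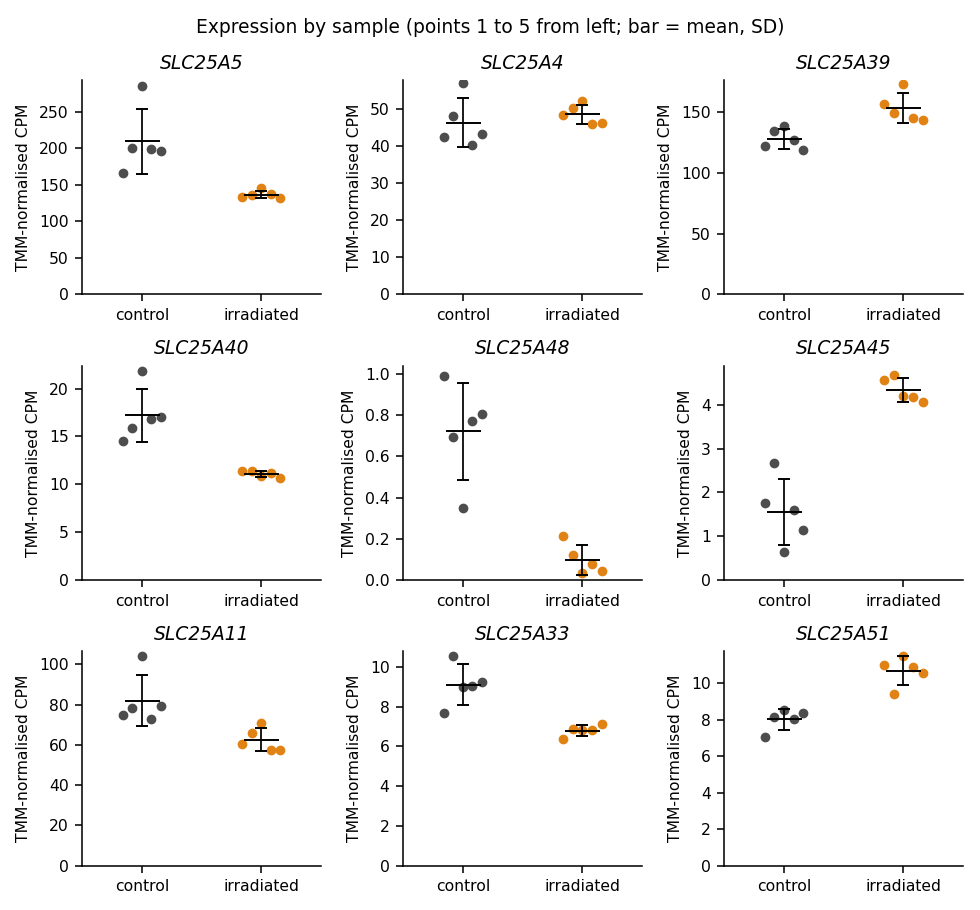
TMM-normalised CPM of 9 members in each sample, control in grey and irradiated in orange, replicates 1 to 5 from left to right, with mean and SD; each axis starts at 0. SLC25A5, SLC25A40, SLC25A48, SLC25A11 and SLC25A33 are lower and SLC25A39, SLC25A45 and SLC25A51 higher in all irradiated samples, and SLC25A4 overlaps between groups.

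Since paralogues with a shared substrate are compared within a sample, their ratio does not depend on how samples are scaled. Of 10 planned ratios 9 could be formed, the 10th needing SLC25A6, and 3 of the 9 differed between groups by the exact two-sided permutation test with Benjamini-Hochberg adjustment. SLC25A4 stood at 0.255, 0.242, 0.199, 0.204 and 0.221 of the level of SLC25A5 in controls and at 0.363, 0.372, 0.358, 0.336 and 0.348 of it in irradiated samples. The groups did not overlap (log2 difference 0.67, adjusted p = 0.0238 by the exact permutation test, higher in 5 of 5 pairs). SLC25A39 stood at 8.44, 8.499, 6.36, 7.55 and 6.97 times SLC25A40 in controls and at 13.8, 13.2, 15.96, 13.0 and 13.5 times in irradiated samples, again with no overlap (log2 difference 0.88, adjusted p = 0.0238 by the exact permutation test, higher in 5 of 5 pairs). SLC25A33 stood at 0.133, 0.181, 0.120, 0.148 and 0.146 of SLC25A36 in controls and at 0.100, 0.111, 0.110, 0.107 and 0.108 in irradiated samples (log2 difference -0.43, adjusted p = 0.0238 by the exact permutation test, lower in 5 of 5 pairs). For SLC25A4 and SLC25A5, SLC25A39 and SLC25A40, and SLC25A33 and SLC25A36 the unadjusted p was 0.00794, the smallest that 5 against 5 samples can give. Without numbers 1 and 3 their log2 differences were 0.67, 0.79 and -0.53, each with an adjusted p of 0.225 by the exact permutation test, which cannot go below 0.1 unadjusted with 3 against 3 samples.

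The ratio of SLC25A16 to SLC25A42 was higher in 5 of 5 pairs (6.69 in controls and 9.08 in irradiated samples as geometric means) but overlapped between groups and missed the threshold (log2 difference 0.44, adjusted p = 0.0536 by the exact permutation test). The threshold was not passed either by the ratios of SLC25A12 to SLC25A13 (0.03), SLC25A22 to SLC25A18 (0.17), SLC25A28 to SLC25A37 (-0.10), SLC25A24 to SLC25A25 (0.07) and SLC25A15 to SLC25A29 (0.17), with adjusted p of 0.414 to 0.730 by the exact permutation test, which does not use the pairing. SLC25A28 to SLC25A37 was nevertheless lower in 5 of 5 pairs. The ratios are of counts not scaled for length, so they show how a balance shifted and not which gene of a pair had more transcripts.

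**Figure D4:**
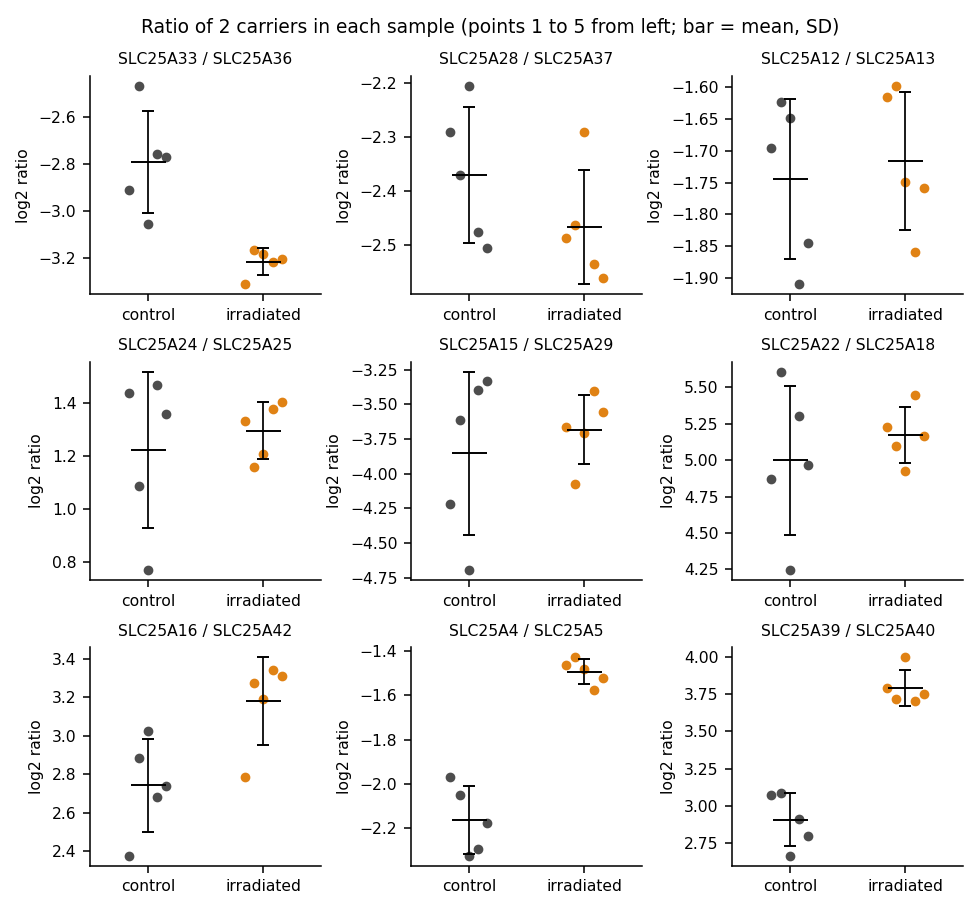
Log2 ratio of 9 pairs of carriers in each sample (control grey, irradiated orange, replicates 1 to 5 from left to right, bars for mean and SD), ordered from the largest fall to the largest rise. SLC25A33 to SLC25A36 is lower, and SLC25A4 to SLC25A5 and SLC25A39 to SLC25A40 are higher, in every irradiated sample than in any control.

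Members together took 0.213%, 0.228%, 0.253%, 0.222% and 0.220% of all counts on genes in control samples 1 to 5 and 0.207%, 0.213%, 0.206%, 0.200% and 0.201% in irradiated samples 1 to 5. The mean share was 0.227% ± 0.0154 in controls and 0.205% ± 0.00504 in irradiated samples (SD, n = 5), lower in 5 of 5 pairs and without overlap (difference -0.0220 percentage points, p = 0.00794 by the exact two-sided permutation test, the smallest possible). That test does not use the pairing. Control sample 1 was close to irradiated sample 2. Without the 3 members with the most counts (SLC25A3, SLC25A29 and SLC25A1) the difference was -0.0153 percentage points (exact permutation p = 0.00794). SLC25A5, which fell, was kept in that comparison. With counts of the mitochondrial genome left out of the total it was -0.0210 (exact permutation p = 0.0238). The groups then overlapped, with the lowest control at 0.233% and the highest irradiated sample at 0.236%. A share of all counts is scaled by library size alone, and such scaling moved the median log2 change of all genes by -0.08. Without numbers 1 and 3 it was -0.0185, where 3 against 3 samples cannot give a p below 0.1. Within the family, SLC25A5 went from 9.35% ± 0.954 to 6.48% ± 0.149 of member counts, SLC25A39 from 5.81% ± 0.397 to 7.28% ± 0.290 and SLC25A11 from 3.68% ± 0.197 to 2.96% ± 0.167.

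The genes that work with the carriers were examined through 11 lists with 107 tested genes, of which 19 rose (17.8%, against 23.9% of all genes tested) and 37 fell (34.6%, against 22.7%). Under scaling by library size alone 14 rose and 56 fell. The lists were chosen with earlier results known and were not tested as sets. Among members of the family with other names, the uncoupling proteins UCP2 (-0.11) and UCP3 (-0.18), MTCH1 and MTCH2 (0.11) were not called and UCP1 held 31 counts. Of 13 genes of carrier import, TIMM9 and TIMM13, small chaperones of the space between the membranes, fell (-0.39 and -0.12), none rose, and TIMM10B was at 0.16 without a call. Opposite-strand genes cover 26.6% of TIMM9 exons and 20.1% of TIMM13 exons.

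Of 14 other mitochondrial transporters 2 rose and 5 fell. Both subunits of the mitochondrial pyruvate carrier fell. MPC1 was at 25.3, 28.5, 37.3, 19.8 and 23.5 CPM in controls and at 16.8, 17.2, 14.1, 12.3 and 12.8 CPM in irradiated samples (log2 change -0.86, SE 0.11, edgeR adjusted p = 0.000756), and MPC2 fell by 0.31. Opposite-strand genes cover 21.8% of MPC2 exons. SFXN3, a sideroflexin of the serine transporter family, was at 74.7, 78.8, 78.4, 83.0 and 73.5 CPM in controls and at 142, 129.9, 155, 150.2 and 138 CPM in irradiated samples (log2 change 0.88, SE 0.05, edgeR adjusted p = 2.26e-05). Of the calcium uniporter complex, the regulator SMDT1 fell (-0.41) and the pore MCU rose (0.59).

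In the malate-aspartate shuttle, where SLC25A11, SLC25A12 and SLC25A13 fell, 2 of 4 enzymes fell, GOT1 (-0.42) and MDH2 (-0.20). MDH1 was at -0.16 (edgeR adjusted p = 0.0528) and GOT2 at -0.11 (edgeR adjusted p = 0.179), both without a call. Of 9 citrate and dicarboxylate enzymes 1 rose and 3 fell, with IDH2, the mitochondrial NADP isocitrate dehydrogenase, at 119, 104, 197, 106 and 111 CPM in controls and at 61.9, 64.3, 71.6, 53.1 and 55.2 CPM in irradiated samples (log2 change -1.02, SE 0.10, edgeR adjusted p = 0.000163). Of 9 glutamine and ornithine enzymes 2 rose and 4 fell, with the proline dehydrogenase PRODH higher (1.49, SE 0.23) and the mitochondrial arginase ARG2 lower (-0.86, SE 0.09). Opposite-strand genes cover 39.6% of ARG2 exons.

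All 4 carnitine partners fell whereas SLC25A20 was higher, a call kept in 3 of 13 alternatives. The partners were CPT1C (-1.25), CPT1A (-0.51), CPT2 (-0.24) and the carnitine acetyltransferase CRAT (-0.34). Of these, CPT1A and CPT2 attach and remove carnitine at either membrane. Of 10 tested iron, haem and iron-sulphur partners 3 rose and 2 fell, with the ferrochelatase FECH lower (-0.38) and the haem synthesis enzyme ALAS1 higher (0.23), while neither iron carrier was called. Of 16 nucleotide and cofactor partners 7 rose and 4 fell. The mitochondrial thymidine kinase TK2 rose (1.05, SE 0.06).

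Of 13 genes of ATP synthesis and phosphate transfer, which depend on the ADP/ATP and phosphate carriers, 3 rose and 7 fell. The adenylate kinase AK4 (0.83) and the hexokinase HK2 (0.70) rose. Among subunits of ATP synthase, ATP5F1A (-0.43), ATP5F1B (-0.41) and ATP5F1C (-0.32) fell and ATP5PO (0.31) rose, the last with overlap between groups. ATP5PO held few counts for the complex, at 9.76 CPM in controls as a mean. ATP5F1A, ATP5F1B and ATP5F1C stood at 634, 748 and 155 CPM there. Whether reads of ATP5PO were lost to overlapping genes was not tested. Of 11 regulators of mitochondrial biogenesis 1 rose and 4 fell. PPARGC1A, a co-activator of mitochondrial genes, was at 54.8, 43.8, 81.6, 43.2 and 49.0 CPM in controls and at 24.7, 25.6, 20.1, 18.2 and 19.7 CPM in irradiated samples (log2 change -1.30, SE 0.15, edgeR adjusted p = 0.000436). The oestrogen-related receptor ESRRG was at 18.3, 20.2, 28.9, 12.4 and 17.3 CPM in controls and at 4.68, 8.44, 3.48, 3.78 and 4.30 CPM in irradiated samples (log2 change -1.99, SE 0.23, edgeR adjusted p = 0.000369). Control sample 3 was the highest of the 10 for PPARGC1A, ESRRG, IDH2 and MPC1, as it was for SLC25A5, SLC25A11 and SLC25A40.

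**Figure D5:**
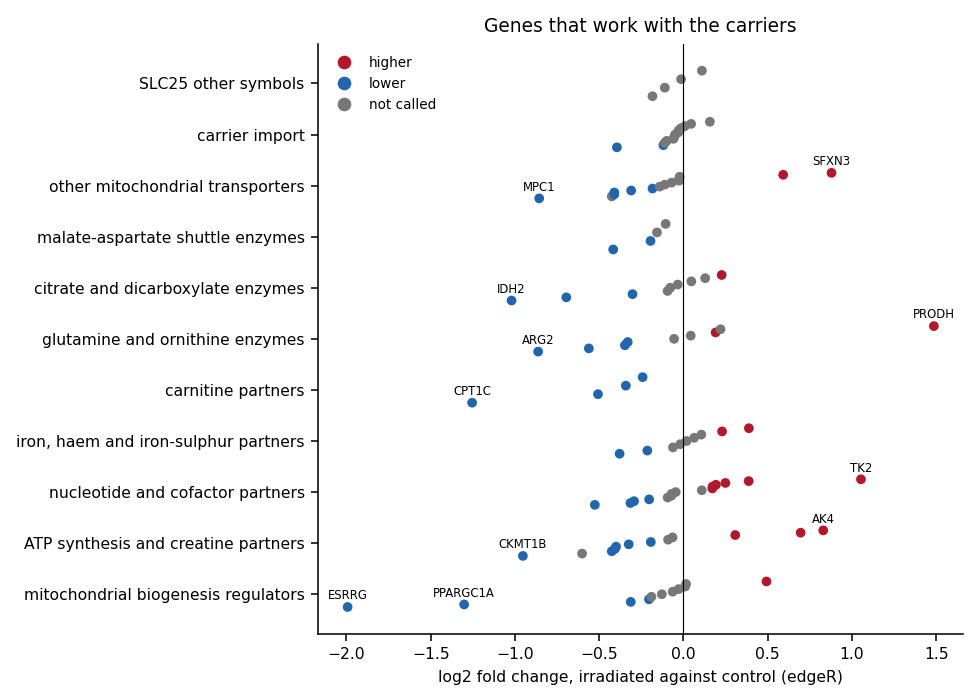
Log2 fold change (edgeR) of 104 of the 107 tested genes in 11 lists of genes that work with the carriers, 1 point per gene (red higher, blue lower, grey not called), with the genes farthest from 0 named. The 4 carnitine partners all lie left of 0, and ESRRG at -1.99 and PRODH at 1.49 are the outermost points.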

How the data were processed

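Gene counts of 5 control and 5 irradiated samples were used, grouped and numbered by the labels. The deposited table holds unnormalised counts, which the authors made by trimming with Trim-Galore, aligning to GRCh38 (hg38) with STAR and counting uniquely mapped reads on GENCODE genes (release not given in the sources used here). The labels and the study's methods name different poly-A library kits. Counting took no account of strand as far as the table shows, since 17 of 17 protein-coding genes lying entirely beneath opposite-strand exons had 0 counts (10.66% of 12742 genes free of overlap did), and reads on overlapping genes are therefore lost. All sample columns were used (0 left out). Of the identifiers, 61369 matched a symbol in GENCODE v44, which also gave coordinates (GRCh38) and canonical transcript lengths.

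Counts were fitted with edgeR 4.0.16 in R 4.3.3 (TMM, glmQLFit, glmQLFTest). The 19006 genes reaching 200 counts in total were kept and replicate number was a block, both as in the study's methods. Benjamini-Hochberg adjustment ran over all of them, with calls under 0.05. SE is the log2 change divided by the square root of F. Replicate numbers were taken to pair samples because the column names give the 2 samples of a number the same B number (B1, B3, B4, B5 and B6). Deviations from the group means correlated at 0.22 to 0.51 within numbers and at -0.35 to 0.32 between different numbers, and these ranges overlap. Ratios and shares were compared by exact two-sided permutation over samples, which does not use the pairing. Depth limits members of low count, such as SLC25A48 with few counts per irradiated sample, and the 7 members under 200 counts got no test.

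The members and lists were chosen with earlier results of these data known. Named by rule were all members, with values in every sample for called members (up to 10 in each direction) and for the 6 highest per length, and from each list the called genes beyond 2-fold or, where there were none, the 3 with the lowest p. ARG2, ATP5F1A, ATP5F1B, ATP5F1C, ATP5PO, CPT1A, CPT2, CRAT, GOT2, MCU, MPC2, the check genes and the divergent neighbours were named after their values were seen. Alternatives were library size and upper quartile scaling, DESeq2 1.42.0, limma-voom (3.58.1), 2 other filters on low counts, no replicate block, each number left out, and numbers 1 and 3 left out. Some genes are not reported here by name, although counts include them. Promoter motifs were searched as exact letters on both strands of RefSeq windows.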

Additional observations from a re-analysis of the deposited data

Results flagged for a closer look

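Among 102 groups of 5 values (each tested member, each ratio and the share of counts on members, in each treatment group), 9 held a sample far from the other 4 by Dixon's test, where chance gives about 5.1. Control sample 3 accounted for 5 of them. It was the highest control for SLC25A5 at 285 CPM (others 166 to 199.7), for SLC25A11 at 104 CPM (others 72.7 to 79.5), for SLC25A23 at 185 CPM (others 137 to 147) and for SLC25A30 at 85.1 CPM (others 45.1 to 52.4), and the lowest for SLC25A14 at 6.78 CPM (others 8.26 to 8.47). SLC25A37 was low in control sample 1, at 73.4 CPM (others 85.2 to 88.3). In irradiated sample 2, SLC25A46 was low at 54.8 CPM (others 56.8 to 57.3) and SLC25A27 high at 17.6 CPM (others 9.78 to 11.9). The log2 ratio of SLC25A16 to SLC25A42 was low in irradiated sample 1, at 2.79 (others 3.19 to 3.34).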

How the results depend on the processing

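Of the 19 called members, 13 kept direction and call in each of the 13 alternatives, among them SLC25A48, SLC25A40, SLC25A5, SLC25A33, SLC25A11, SLC25A13 and SLC25A12 of those lower, and SLC25A45, SLC25A21, SLC25A51, SLC25A43 and SLC25A39 of those higher. SLC25A24, SLC25A20, SLC25A26, SLC25A16, SLC25A27 and SLC25A17 lost their call in at least 1, keeping direction. Of the 22 members not called, 9 were called in at least 1 alternative (SLC25A44 and SLC25A38 under library size scaling only, SLC25A23 and SLC25A42 also under upper quartile, SLC25A3, SLC25A15, SLC25A29, SLC25A4 and SLC25A1), and 7 changed sign. Under library size scaling 5 members were higher and 16 lower, and 56 genes of the partner lists were lower, as that scaling moved the median of all genes by -0.08. With single replicate numbers omitted, 5 to 10 members were higher and 8 to 9 lower (5 higher without number 4). Without the replicate block 7 members were higher and 8 lower, and SLC25A20, SLC25A26, SLC25A27, SLC25A16 and SLC25A17 lost their call while SLC25A15 gained one. With 1 number omitted the log2 ratio differences ran from 0.63 to 0.71 for SLC25A4 to SLC25A5, from -0.50 to -0.36 for SLC25A33 to SLC25A36 and from 0.77 to 0.94 for SLC25A39 to SLC25A40. None of these passed the adjusted threshold, with an adjusted p of 0.0643 to 0.0857 by the exact permutation test. Before adjustment that test cannot go below 0.0286 with 4 against 4 samples. The share of counts on members differed by -0.0258 to -0.0156 percentage points with 1 number omitted. No called result reversed. Low counts limit SLC25A48 and SLC25A21, and counting without strand limits members that overlap other genes.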
